A study of Mus musculus with 20 samples.

Results

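The livers of mice given the GL3 control siRNA were compared with those of mice given the SEAP-M control siRNA, 4 mice of each, which make up 8 of the 20 arrays of the series. The members were chosen by the array titles, with earlier results of these data known, and every probe of the table entered the comparison. In the series, 4 mice received Ringer's solution alone (the vehicle), and 4 each received an siRNA, namely PPARa siRNA, PPARa-M siRNA, or a control siRNA named GL3 or SEAP-M. Each siRNA was given at 40 µg in Ringer's solution through the tail vein by the hydrodynamic technique, and livers were taken 48 h later. Both control groups carried the same dose, the same solution and the same injection. Strain, sex and age are not stated, and neither is what the suffix M stands for. The mouse numbers run from 5 to 8 with GL3 and from 13 to 16 with SEAP-M, so anything that follows this order cannot be told apart from the siRNA. Each mouse is a separate animal and was profiled on 1 array.

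A small interfering RNA is a short duplex of which 1 strand is loaded into an Argonaute protein and guides the cleavage of a matching messenger RNA. GL3 is the name of a firefly luciferase reporter and SEAP is secreted alkaline phosphatase, a reporter derived from a placental enzyme, so a control siRNA of either kind is directed at a transcript that an untreated mouse liver does not make. Duplex RNA can be sensed by the innate immune system, and a guide strand can also act on partly matching messages, for which reason control siRNAs with different sequences are used side by side. The hydrodynamic technique forces a large volume into the hepatic veins within seconds and carries nucleic acid into hepatocytes. The question of the comparison is how far livers differ between 2 siRNAs with no intended target in the mouse.

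The values are ratios of each liver to a pool of 4 vehicle livers, so they show differences and not levels, and the identity of the tissue cannot be checked from them. The direction was taken as mouse over pool. It is likely and not stated: the titles name the pool first and the mouse second, and Ppara was below the pool in 7 of the 8 mice given an siRNA against it. All values below are on the log2 scale unless another scale is named. Depth in the sense of reads does not apply, and the number of arrays limits the precision. The interquartile range of the log10 ratios over all probes was 0.0442 to 0.0594 in the GL3 mice and 0.0520 to 0.0852 in the SEAP-M mice. These ranges overlap, and their means differed by -0.0109 (GL3 minus SEAP-M, two-sided exact permutation test, p = 0.229, smallest possible p = 0.0286). Correlations over all probes were 0.026 to 0.299 between GL3 mice, 0.107 to 0.297 between SEAP-M mice and -0.108 to 0.210 between a mouse of each group.

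No probe passed the test between GL3 and SEAP-M. In the limma fit over all 20 arrays, 0 of 23493 probes (0%) and 0 of 15252 genes had an adjusted p under 0.05, and the smallest adjusted p of a probe was 0.0739. Without adjustment, p was under 0.05 for 2349 probes (10%), of which 1220 (5.19%) were above and 1129 (4.81%) below in GL3, and for 1693 genes (11.1%). Differences were above 0 in 47.8% of probes and 48.4% of genes. The groups of 4 did not overlap in 1074 probes with GL3 above (4.57%) and in 976 with GL3 below (4.15%). Differences past 1 log2 unit were few, with 30 probes (0.128%) and 19 genes (0.125%). The 0 calls depended on the processing: 55 probes (0.234%) passed after quantile normalization, 84 (0.358%) after scaling every array to one interquartile range, 231 (0.983%) with array quality weights, and 65 (0.277%) when only the GL3, SEAP-M and vehicle arrays were fitted. The calls divided into 27 above (0.115%) and 28 below (0.119%) in the first, 40 (0.17%) and 44 (0.187%) in the second, 111 (0.472%) and 120 (0.511%) in the third, and 52 (0.221%) and 13 (0.0553%) in the last. In these settings 257 probes passed at least once and 21 passed in all 4, of which 13 were higher and 8 lower in GL3. Robust moderation, median centring, the fit of both groups alone and the fit with the replicate letter as a block gave 0.

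**Figure D1:**
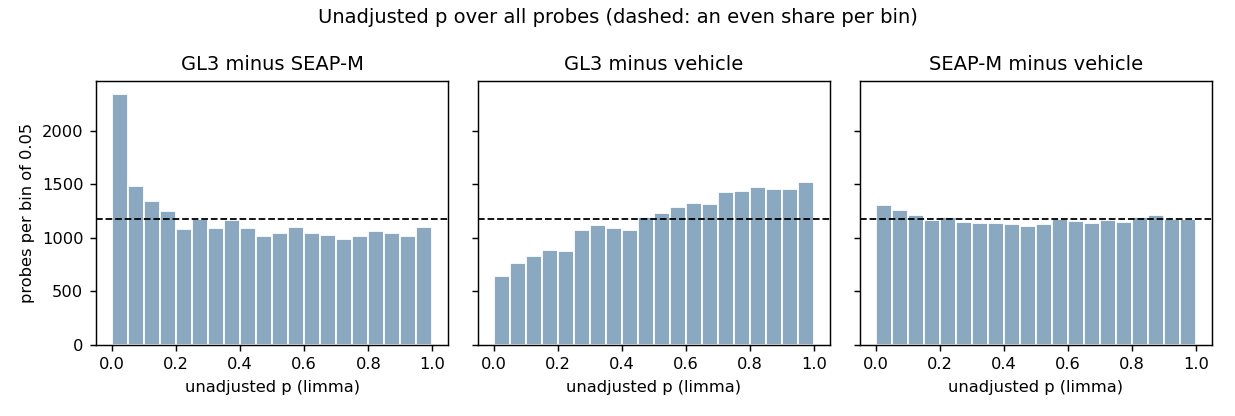
Histograms of the unadjusted limma p over 23493 probes, in bins of 0.05 (x axis, p; y axis, probes per bin; dashed line, an even share). The first bin holds 2349 probes for GL3 minus SEAP-M, 642 for GL3 minus vehicle and 1310 for SEAP-M minus vehicle.

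Some of the widest differences between the groups were in liver genes of the growth hormone response: Onecut1 and Cish were below and Bcl6 above in GL3. Growth hormone reaches the liver in pulses and activates STAT5, a transcription factor that binds DNA at the letters TTCNNNGAA. Cish encodes an inhibitor of cytokine receptor signalling that STAT5 induces, Bcl6 encodes a transcriptional repressor that growth hormone lowers in the liver, and Onecut1 encodes HNF6, a liver transcription factor that growth hormone induces. Foxa2 encodes a forkhead factor of liver cells. Cish and Bcl6 were named by their rank in a gene list chosen with earlier results of these data known. Onecut1 and Foxa2 were named after their values were seen.

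Onecut1 was at -0.41, -0.63, -0.29 and -0.39 in GL3 mice A to D and at 1.02, 1.58, 1.48 and 2.30 in SEAP-M mice A to D. The difference was -2.03 ± 0.44 (SE; a 4.07-fold difference), with an adjusted p of 0.147 over all probes. The groups did not overlap, and the lowest SEAP-M mouse lay above all 4 vehicle mice, which ranged from -0.96 to 0.76. Cish was at -0.94, -1.03, -0.93 and -0.93 with GL3 and at 0.06, 0.43, 0.99 and 0.95 with SEAP-M. Its difference was -1.57 ± 0.41 (SE, adjusted p = 0.187 over all genes), 2.96-fold. The 4 GL3 mice were nearly equal, and each was below each SEAP-M mouse.

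Bcl6 went the other way. It was at 0.56, 0.62, 0.49 and 0.63 in the GL3 mice and at -0.25, -1.45, -1.68 and -1.44 in the SEAP-M mice, a difference of 1.78 ± 0.53 (SE, adjusted p = 0.236) or 3.44-fold. All GL3 mice lay above all SEAP-M mice. Foxa2 was at -0.27, -0.36, -0.34 and -0.29 with GL3 and at 0.03, 0.24, 0.84 and 0.81 with SEAP-M (difference -0.80 ± 0.24, SE, adjusted p = 0.245). The spread among the GL3 mice was narrow in all 4 genes, as the plot of the genes by mouse shows.

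Single mice of other groups leaned to either side. Vehicle mouse D had Onecut1 at 0.76, Cish at 0.48, Bcl6 at -1.60 and Foxa2 at 0.59, on the SEAP-M side of 0 in each gene, although its Onecut1 was below every SEAP-M mouse. Vehicle mouse B had -0.96, -1.19, 0.59 and -0.40 for these genes in turn, a pattern like that of the GL3 mice. PPARa siRNA mouse B, at 1.63, 0.91, -1.70 and 0.51, resembled the SEAP-M mice. So did PPARa-M siRNA mouse A, at 1.51, 0.58, -1.30 and 0.72. Against vehicle, neither control group passed the test in any of these genes. In the gene fit with array weights, where 264 of 15252 genes passed between GL3 and SEAP-M, all 4 of these genes passed. Their adjusted p over all genes was 0.0260 for Onecut1, 0.0357 for Cish, 0.0351 for Bcl6 and 0.0486 for Foxa2. The 4 genes were chosen in these same arrays, so their passing is no separate test. Onecut1 also passed after quantile normalization (adjusted p = 0.0421) and in the fit of the GL3, SEAP-M and vehicle arrays (adjusted p = 0.0323), where the others did not.

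**Figure D2:**
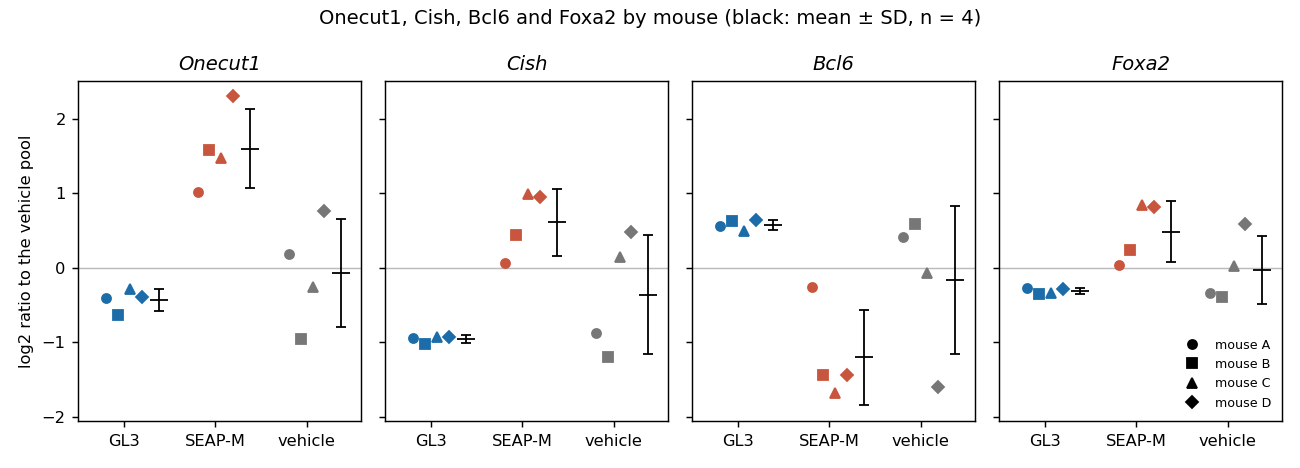
Log2 ratio to the vehicle pool (y axis) of Onecut1, Cish, Bcl6 and Foxa2 in each mouse given GL3 control siRNA, SEAP-M control siRNA or vehicle (x axis); symbols mark mice A to D and black bars the mean ± SD (n = 4). The GL3 and SEAP-M mice do not overlap in any of the 4 genes. The vehicle mice spread from the GL3 to the SEAP-M mice for Cish, Bcl6 and Foxa2 and lie below all SEAP-M mice for Onecut1.

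The growth hormone and sex-biased list as a whole did not move in 1 direction. Of its 35 measured genes, 0 passed in either direction, 21 were above 0 and 14 below, and the median was 0.04 (-0.02 without SEAP-M mouse B) beside -0.00498 over all genes. Without adjustment p was under 0.05 for 2 genes above 0 and 1 below, beside 5.74% and 5.36% of all genes. Bcl6 and Cyp3a44, a female-biased cytochrome P450 (0.46 ± 0.18, SE), were above and Cish was below. The groups did not overlap in 1 gene with GL3 above and 1 with GL3 below (4.92% and 4.5% of all genes). Other targets of the hormone, named after their values were seen, were near 0: Igf1, the growth factor it induces, differed by 0.04 ± 0.07 (SE), and Socs2, a second inhibitor of its receptor, by -0.12 ± 0.51 (SE).

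The promoter windows of Cish and Bcl6 hold the letters TTCNNNGAA, and they are shown because both genes separate the groups. RefSeq windows of GRCm38.p6 were searched, each from 250 bases before to 50 bases after a transcript start. The motif reads the same on both strands. It was found in 8.3% of the 32851 windows, 2 or more times in 0.457% and 3 or more times in 0.0335%. The Cish window holds 2, which begin at bases 1 and 12 of the transcript. Of the Bcl6 windows, the first holds 1 and the second holds 3, all before the start. The single Onecut1 window and the 3 Foxa2 windows hold none. A match describes the letters and not the binding of a factor. Stretches of 30 bases around each match follow, 5′ to 3′ on the gene's strand, with the motif in capitals.
Cish, chr9:107296654-107296683, plus strand: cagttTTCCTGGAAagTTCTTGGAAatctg
Bcl6 first start, chr16:23988951-23988980, minus strand: agcaaattagTTCTCAGAAttccagaggcc
Bcl6 second start, chr16:23981432-23981461, minus strand: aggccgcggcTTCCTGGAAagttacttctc
Bcl6 second start, chr16:23981386-23981415, minus strand: ggcaggagtgTTCTGTGAAatccttagagc
Bcl6 second start, chr16:23981352-23981381, minus strand: atcgactacgTTCCGGGAAtgagagggctg

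Beyond these genes, the probes with the smallest p among those with 1 gene symbol whose groups did not overlap were named, 12 in each direction. Probes without a symbol were left out of this choice, among them the one with the smallest p of all, which differed by 0.92 (adjusted p = 0.0739). None of the 24 named probes passed in the fit of all arrays, with adjusted p from 0.0739 to 0.147. In all 4 settings listed above 12 of the 24 passed, among them Poli, Hacl1, Inafm1, Tppp, Frmd4b, Phf1, Spcs2 and Abcd4. The 24 were chosen by their p in the same arrays, so these passes are no separate test. In 17 of the 24 the SEAP-M mean lay farther from the vehicle mean than the GL3 mean did.

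The largest difference among them was that of Cbr3, a carbonyl reductase of the NRF2 response. Cbr3 was at -0.66, -0.03, -0.13 and 0.47 in the GL3 mice and at -2.11, -1.20, -1.03 and -1.25 in the SEAP-M mice, 1.31 ± 0.24 apart (SE, adjusted p = 0.102), or 2.47-fold. The GL3 mice surrounded the vehicle mean of -0.01, and every SEAP-M mouse lay below the vehicle mice. Gpx2, a glutathione peroxidase of the same response, differed by 0.49 ± 0.13 (SE) without overlap. In the NRF2 list 0 of 17 genes passed, 10 were above 0 and the median was 0.04, between -0.01 without SEAP-M mouse D and 0.11 without GL3 mouse B.

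Poli, a translesion DNA polymerase, had the smallest adjusted p of a named gene (0.0739). It was at -0.11, -0.13, -0.12 and -0.09 with GL3 and at 0.16, 0.48, 0.38 and 0.34 with SEAP-M, and the difference was -0.45 ± 0.07 (SE). The GL3 mice were nearly equal (SD 0.0170), the SEAP-M mice less so (SD 0.133), and the groups lay on opposite sides of the vehicle mean of 0.01. Hacl1, a peroxisomal lyase of phytanic acid breakdown, was at 0.25, 0.19, -0.02 and 0.03 with GL3 and at -0.31, -0.64, -0.55 and -0.41 with SEAP-M (0.59 ± 0.10, SE, adjusted p = 0.102). All 4 GL3 mice were above all 4 SEAP-M mice. Frmd4b, a FERM domain protein, differed by 0.91 ± 0.17 (SE, adjusted p = 0.102), with GL3 mice from -0.05 to 0.34 and SEAP-M mice from -1.22 to -0.44.

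The remaining named probes with GL3 above belong to several roles. Snap29 encodes a membrane fusion protein (0.42), Spcs2 a signal peptidase subunit of the endoplasmic reticulum (0.41) and Hspa13 a microsomal chaperone of the heat shock 70 family (0.41). Zfp810 encodes a zinc finger protein (0.40), Caap1 an apoptosis regulator (0.41) and Mindy3 a deubiquitinase (0.47), and Tnfaip2 is induced by tumour necrosis factor (0.59). Hmgb1, a chromatin protein released from injured cells, was named by 2 probes (0.61 and 0.57). The remaining Hmgb1 probe disagreed, at -0.18 ± 0.10 (SE, adjusted p = 0.585), so that its direction is uncertain.

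With GL3 below, the differences were smaller. Abcd4, a transporter of the ABC family that handles cobalamin, differed by -0.45 and Tppp, a tubulin-binding protein, by -0.55. Pcbp4, an RNA-binding protein, differed by -0.44, Myh14, a non-muscle myosin, by -0.43 and Prodh, which starts proline breakdown, by -0.43. The others were Inafm1 (-0.41), Phf1 of the Polycomb group (-0.39), Thumpd1, a partner of an RNA acetyltransferase (-0.38), Aifm3 of the apoptosis-inducing factor family (-0.35), Dtnb of the dystrobrevin complex (-0.32) and Rex1bd (-0.30). Prodh alone among the 12 had SEAP-M mice around the vehicle mean and GL3 mice well below it, from -0.57 to -0.29. Cirbp, a cold-inducible RNA-binding protein named after its values were seen, differed by -0.76 ± 0.17 (SE, adjusted p = 0.154), with all 4 SEAP-M mice between 0.30 and 0.66.

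**Figure D3:**
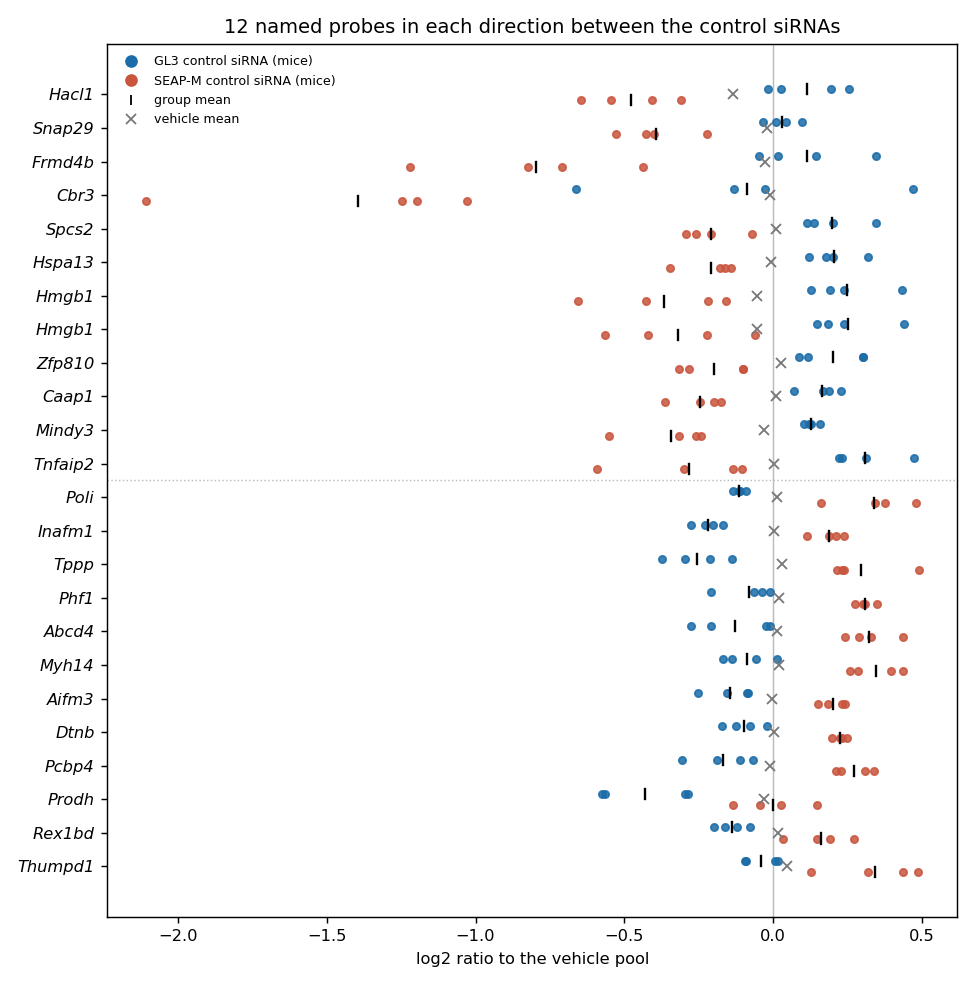
Log2 ratio to the vehicle pool (x axis) of the 12 named probes with GL3 above (top) and the 12 with GL3 below (bottom), 1 probe a line; points are mice, black ticks group means and crosses vehicle means. The GL3 and SEAP-M mice do not overlap in any line, by the rule that chose the probes, and the SEAP-M mean is the farther from vehicle in 17 of 24.

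Nearly all genes of cholesterol synthesis had a higher mean in GL3 than in SEAP-M. This pathway turns acetyl-CoA into cholesterol in the endoplasmic reticulum and is driven by SREBP2 when sterol is scarce. Of 19 genes measured 0 passed and 18 were above 0 (48.4% of all genes). Unadjusted p was under 0.05 for 5 above 0 and 0 below, where all genes gave 5.74% and 5.36%. The groups did not overlap with GL3 above in 4 of the 19 (4.92% of all genes). The median was 0.27 beside -0.00498 over all genes, 0.18 without GL3 mouse C and 0.41 without SEAP-M mouse A. Set against vehicle, the median was 0.09 with GL3 and -0.19 with SEAP-M. By mouse the groups overlapped. The list mean was 0.11, -0.11, 0.39 and -0.10 in GL3 mice A to D. It was -0.02, -0.26, -0.43 and -0.31 in SEAP-M mice A to D, and the vehicle mice ranged from -0.50 to 0.30.

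Sqle, a rate-limiting enzyme of the late pathway, was at 0.23, 0.27, 0.98 and 0.07 in the GL3 mice and at -0.39, -0.46, -0.87 and -0.39 in the SEAP-M mice. It differed by 0.91 ± 0.35 (SE, adjusted p = 0.334) and did not overlap. Insig1, which holds the SREBP complex in the endoplasmic reticulum, differed by 0.71 ± 0.26 (SE, adjusted p = 0.306). Its highest SEAP-M mouse, at -0.15, lay above the lowest GL3 mouse, at -0.34. Tm7sf2, a sterol reductase, differed by 0.48 and Stard4, a sterol carrier, by 0.47, and both overlapped between the groups. The vehicle mice spread as widely as these differences: Sqle was between -0.91 and 0.51 in them. Acsl3, an acyl-CoA synthetase from the fatty acid and triglyceride list, differed by 0.67 ± 0.18 (SE) without overlap, while 14 of the 33 genes of that list were above 0.

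Several genes of glycogen storage were separated as well, with GL3 above SEAP-M. Ppp1r3c, which targets a phosphatase to glycogen, was at 0.51, 0.05, 0.33 and 0.41 in GL3 mice and at -0.11, -0.49, -0.39 and -0.85 in SEAP-M mice (0.79 ± 0.25, SE, adjusted p = 0.253). Gbe1, the glycogen branching enzyme, differed by 0.49 ± 0.15 (SE) and Gys2, the liver glycogen synthase, by 0.31 ± 0.10 (SE). None of these 3 genes overlapped between the groups. Igfbp1, a binding protein that insulin lowers, differed by 1.23 ± 0.40 (SE), 2.34-fold, with GL3 mice from -0.17 to 0.65 and SEAP-M mice from -2.34 to 0.01, which overlap. Over the 29 genes of the glucose and glycogen list, 0 passed, 18 were above 0, 5 did not overlap with GL3 above (4.92% of all genes), and the median was 0.06.

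Clock genes were compared next, since liver transcripts follow the time of day. Of 24 measured, 0 passed, 15 were above 0, unadjusted p was under 0.05 for 4 above 0 and 0 below (5.74% and 5.36% of all genes), and the median was 0.12, or 0.05 without GL3 mouse C. Clock, an activator of the core loop, differed by 0.29 ± 0.09 (SE), and Nr1d2, a repressor of the loop, by 0.35 ± 0.12 (SE), both without overlap. The Nr1d2 value is a mean over its probes, 1 of which differed by 0.65. Per3 (0.29, and 0.14 without SEAP-M mouse D) and Wee1 (0.51), a cell cycle kinase under clock control, overlapped.

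For the machinery that an siRNA uses, 0 of 19 genes passed, 13 were below 0 and the median was -0.05. Tnrc6a, the GW182 protein that links Argonaute to silencing, was at -0.05, 0.05, -0.18 and -0.08 with GL3 and at 0.28, 0.41, 0.19 and 0.35 with SEAP-M, a difference of -0.37 ± 0.09 (SE, adjusted p = 0.185). Its SEAP-M mice were all above its GL3 mice. Mov10, an RNA helicase bound to Argonaute, differed by -0.24, and Snd1, a nuclease of the same complexes, by -0.28, both without overlap. Tsn, a subunit of the C3PO nuclease that removes passenger strands, differed by 0.20 with overlap. The list median rested in part on single mice, since it was -0.00 without SEAP-M mouse A and -0.12 without SEAP-M mouse C.

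Sensors of foreign nucleic acid gave no difference past the test, with 6 of 12 genes above 0 and a median of 0.02 (0.10 without SEAP-M mouse B). Those with the smallest p were Irf3, a transcription factor downstream of the sensors, at -0.15 ± 0.07 (SE), and Sting1, the adaptor for cytosolic DNA, at 0.20 ± 0.11 (SE). Of 40 interferon-stimulated genes 0 passed, 25 were above 0 and the median was 0.07, or 0.01 without SEAP-M mouse A. Irf1, an interferon-induced transcription factor, was at 0.52, 0.23, 0.28 and 0.47 with GL3 and at -0.21, 0.03, 0.13 and -0.44 with SEAP-M (0.50 ± 0.13, SE, adjusted p = 0.187). The GTPase Ifi47 differed by 0.54 ± 0.23 (SE). Neither gene overlapped between the groups, whereas Tgtp1, a GTPase of the same family (0.79 ± 0.43, SE), did because of a single SEAP-M mouse at 0.34. Without SEAP-M mouse A, at -1.49, its difference was 0.39.

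The alkaline phosphatases of the mouse are relatives of the SEAP reporter. All 4 on the array were near 0 in the comparison: Akp3 differed by -0.08 ± 0.07 (SE), Alpi by -0.13 ± 0.20 (SE), Alppl2 by -0.04 ± 0.08 (SE) and Alpl, the tissue-nonspecific enzyme of liver, by -0.02 ± 0.08 (SE). The groups overlapped in each. The values moved to the other side of 0 for Alpi, Alppl2 and Alpl under some alternatives, so no direction is given.

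Ppara, the target of the other siRNAs of the study, was at 0.04, 0.20, 0.00 and 0.15 in the GL3 mice and at 0.80, -0.16, 0.12 and -0.07 in the SEAP-M mice (mean of 4 probes). The difference was -0.08 (two-sided exact permutation test, p = 0.914, smallest possible p = 0.0286), and it was 0.13 without SEAP-M mouse A, the highest of the 8. Its targets Cpt1a, the gate of mitochondrial fatty acid oxidation, and Acadl, an acyl-CoA dehydrogenase, differed by -0.04 ± 0.09 (SE) and 0.08 ± 0.08 (SE). Of 37 PPARa targets 0 passed and 27 were below 0, with a median of -0.05 (-0.10 without SEAP-M mouse C). Decr1, a reductase for unsaturated fatty acids, differed by 0.55 ± 0.17 (SE) without overlap. The mitochondrial transferase Cpt2 was at -0.21, the peroxisomal enzyme Ehhadh at -0.22 and the glycerol channel Aqp7 at -0.19. In the peroxisome list, where 12 of 19 genes were above 0 and the median was 0.10, the membrane protein Pxmp2 differed by -0.27 and Pex3, a factor of membrane assembly, by 0.36, both without overlap. The import factor Pex6 differed by -0.47, also without overlap, and by -0.28 without SEAP-M mouse A, which was at 0.99.

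In bile acid transport 1 exporter stood out. Abcc3, an exporter of bile acids and glucuronides, was at -0.12, -0.10, -0.14 and -0.01 with GL3 and at 0.97, 0.31, 0.30 and 0.28 with SEAP-M (-0.56 ± 0.13, SE, adjusted p = 0.185). SEAP-M mouse A stood far above its group, and the groups did not overlap without it either. Akr1d1, a reductase of bile acid synthesis, differed by 0.40, Nr5a2, a nuclear receptor that drives this synthesis, by 0.25 and the sterol exporter Abcg8 by -0.41 (-0.25 without SEAP-M mouse A). The list of 25 genes had 12 above 0 and a median of -0.02 (0.05 without SEAP-M mouse A). In phase II conjugation 22 of 37 genes were below 0, 5 did not overlap with GL3 below (4.5% of all genes), and the median was -0.03 (0.01 without SEAP-M mouse C). They included Gstk1 (-0.24), Gstt3 (-0.23) and Gstt1 (-0.18), which are glutathione transferases, and Papss2 (-0.32), which makes the sulfate donor.

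Most inflammatory and leukocyte markers had a higher mean in GL3, and none passed. A bulk liver cannot tell more cells of a type from more RNA per cell. Of 16 neutrophil markers 0 passed, 14 were above 0, 3 did not overlap with GL3 above (4.92% of all genes) and the median was 0.26, or 0.11 without GL3 mouse B. The neutrophil genes S100a8, S100a9 and Lcn2 were highest in the same animal, GL3 mouse B, at 1.45, 1.66 and 1.59, and the other GL3 mice lay between -0.85 and 0.19. Their differences of 0.94, 0.98 and 1.05 were smaller than 2 SE (SE 0.74, 0.70 and 0.62). Of 18 macrophage markers 14 were above 0 (median 0.12, and 0.02 without SEAP-M mouse A), led by Cybb, the phagocyte oxidase subunit (0.48 ± 0.15, SE, no overlap). Lymphocyte markers had 14 of 21 above 0 (median 0.06, and -0.00 without GL3 mouse D), with the granzymes Gzma at 0.69 and Gzmb at 0.50 and the leukocyte phosphatase Ptprc at 0.47, all overlapping. Without SEAP-M mouse A, Gzma was at 0.36 and Ptprc at 0.31, and without GL3 mouse D, Gzmb was at 0.29.

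Of 42 chemokine and cytokine genes 30 were above 0, unadjusted p was under 0.05 for 5 above 0 and 0 below (5.74% and 5.36% of all genes), and the median was 0.10, or 0.04 without SEAP-M mouse A. They included Cxcl5 (0.57) and Ccl8 (0.22), without overlap, and Cxcl12 (0.39). Of 36 acute phase genes 24 were above 0, with a median of 0.12 (0.07 without GL3 mouse B). Crp, the C-reactive protein, was at 0.01, 0.35, 0.11 and -0.03 with GL3 and at -0.38, -0.53, -0.41 and -0.53 with SEAP-M (0.57 ± 0.19, SE, adjusted p = 0.278). Its GL3 mice stood at the level of the vehicle mice (-0.17 to 0.35), and its SEAP-M mice below all of them. Serpina10, a protease inhibitor of plasma, differed by 0.53 without overlap and the haem carrier Hpx by 0.42. Against vehicle the acute phase median was -0.04 with GL3 and -0.18 with SEAP-M.

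Of 23 stellate cell and matrix genes 0 passed, 14 were below 0 and the median was -0.05, which turned to 0.06 without GL3 mouse A. The list mean of GL3 mouse B (0.234) was above that of every SEAP-M mouse (0.0794 to 0.164). The proteoglycan Dcn was at 0.29, 0.35, 0.25 and 0.12 in the GL3 mice and at 1.27, 0.43, 0.70 and 0.69 in the SEAP-M mice (-0.52 ± 0.18, SE, adjusted p = 0.287). Bgn, a related proteoglycan, differed by -0.53, and neither gene overlapped between the groups. In this list 2 genes did not overlap with GL3 below (4.5% of all genes). Eng, an endothelial receptor for TGF-beta from the endothelial list, differed by -0.41 without overlap. Of the 19 endothelial genes 0 passed, 8 were above 0 and 11 below, and 1 did not overlap with GL3 below. Their median was -0.02, or 0.03 without SEAP-M mouse B. Of 16 hepatocyte markers 9 were below 0 and the median was -0.01.

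No gene of the protein and energy metabolism lists passed. Of 37 heat shock and unfolded protein response genes 25 were above 0 (median 0.09, and 0.04 without GL3 mouse C), among them the endoplasmic reticulum chaperone Dnajb9 (0.62), the stress gene Ddit4 (0.81) and Dnajb1 (0.28). Of 62 oxidative phosphorylation genes 44 were below 0 (median -0.06, and -0.03 without GL3 mouse C), and unadjusted p was under 0.05 for 7 below and 2 above 0 (5.36% and 5.74% of all genes). The respiratory chain subunits Uqcrc1 (-0.23) and Cox5a (-0.18) were among the first, cytochrome c (Cycs, 0.33) and Uqcrfs1 (0.21) the others. Of 38 proteasome genes 20 were above 0, with the ATPase Psmc6 at 0.38. Of 57 cytosolic ribosomal protein genes 24 were above 0, 7 did not overlap with GL3 below (4.5% of all genes) and the median was -0.02, or 0.01 without GL3 mouse C. No cell cycle gene of 57 and no p53 target of 16 had an unadjusted p under 0.05.

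**Figure D4:**
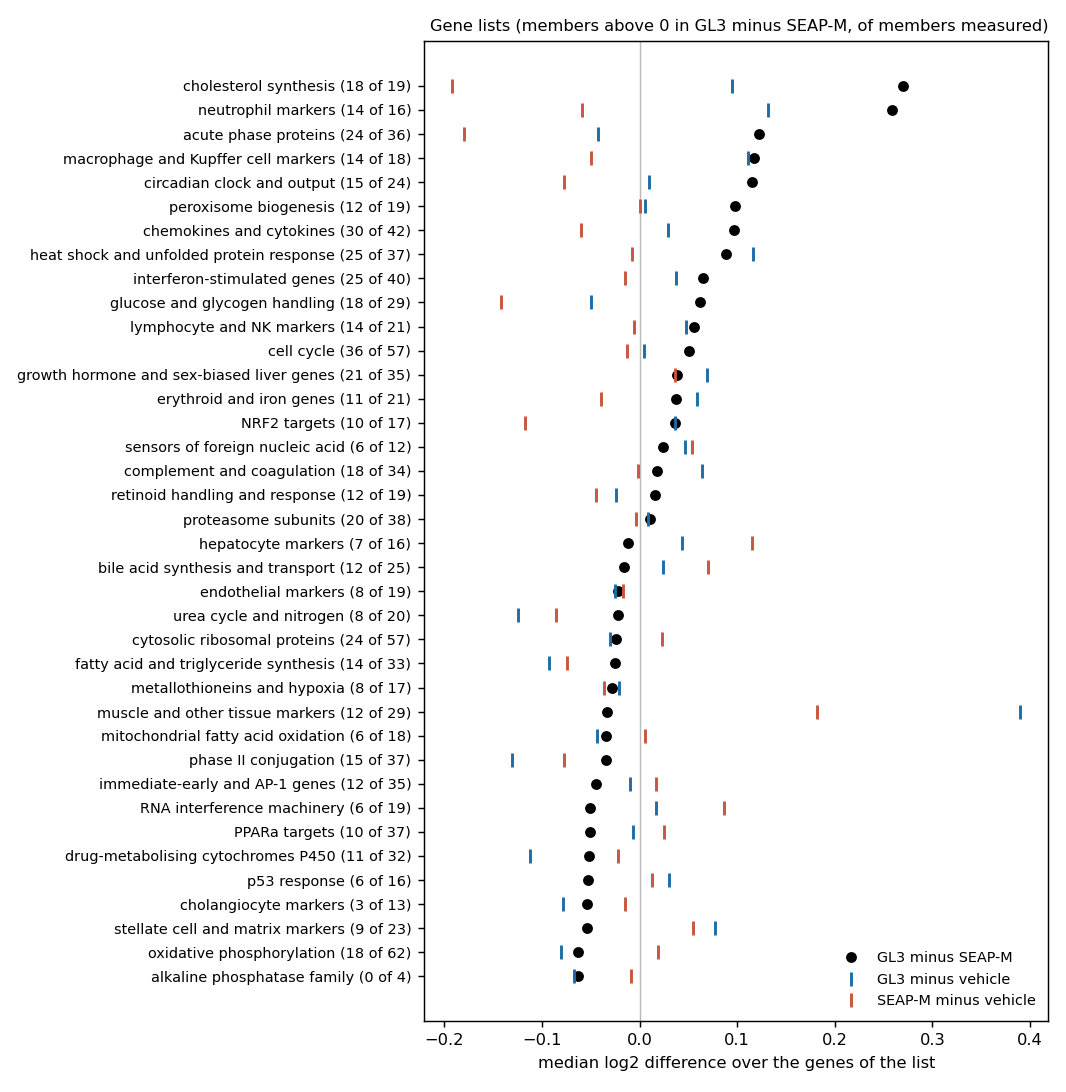
Median log2 difference (x axis) of each of the 38 gene lists (y axis, with the members above 0 of the members measured) for GL3 minus SEAP-M (points) and for each control siRNA minus vehicle (ticks). Cholesterol synthesis (0.27) and neutrophil markers (0.26) have the highest medians and the lowest median is -0.06; 0 list members passed the test.

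Transcripts of other tissues differed between mice, and none passed between the groups. The mean of 8 skeletal muscle transcripts was 1.38, 0.94, 0.98 and 0.12 in GL3 mice A to D, against 0.35, -0.07, 0.41 and -0.11 in the SEAP-M mice and -0.26 to 0.43 in the vehicle mice. The troponin Tnnc2 reached 2.93, 2.33 and 2.26 in GL3 mice A to C and 0.30 in mouse D, and Tnni2 (0.64), Myl1 (0.78) and Myh4 (0.62) leaned the same way. The mean of 8 pancreatic transcripts was -0.81, 0.46, 1.12 and 0.23 with GL3 and 0.72, 0.04, 0.60 and 1.59 with SEAP-M. It was -0.98, 1.15, 1.18 and -1.14 with PPARa siRNA and 1.24, 1.81, 1.23 and 1.28 with PPARa-M siRNA. With the muscle mean as a covariate 1 probe passed in the fit of all arrays and 0 in that of the GL3, SEAP-M and vehicle arrays. The part of either tissue in the differences described above was not tested.

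**Figure D5:**
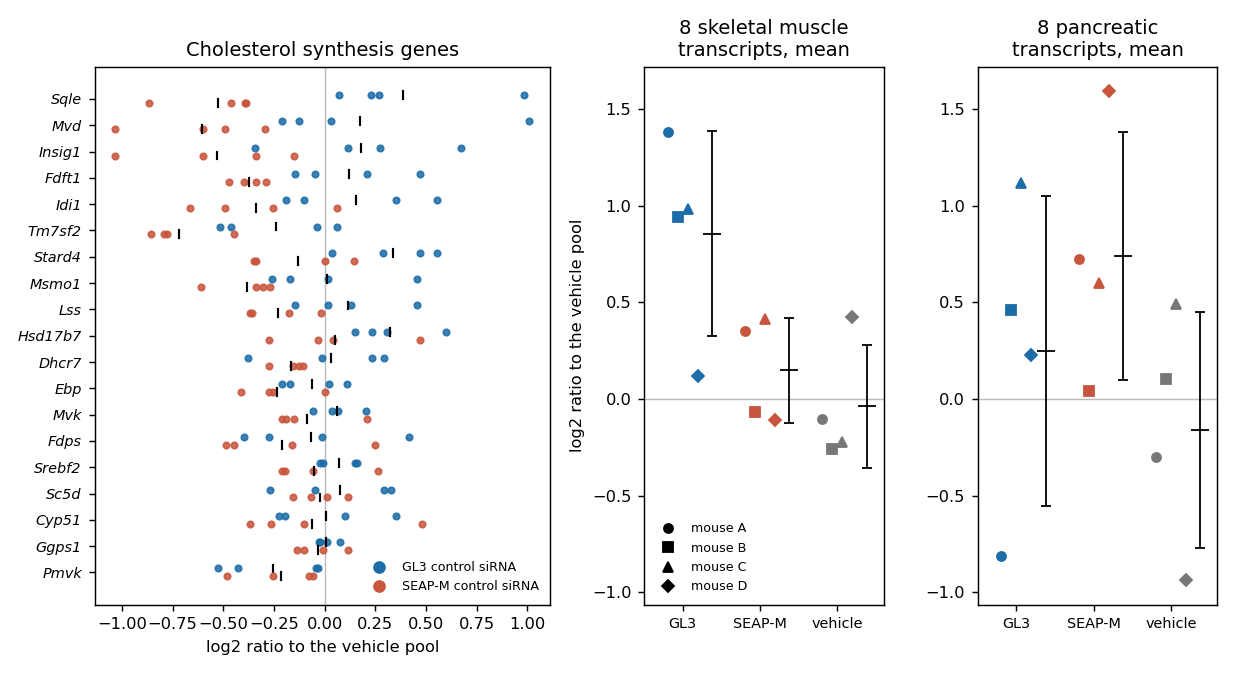
Left, log2 ratio to the vehicle pool (x axis) of the 19 cholesterol synthesis genes in the GL3 and SEAP-M mice (points; black ticks, group means). Right, mean log2 ratio (y axis) of 8 skeletal muscle and 8 pancreatic transcripts by mouse, with black bars for mean ± SD (n = 4); GL3 mice A to C lie at 0.94 to 1.38 for muscle and mouse D at 0.12.

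Each control siRNA was also set against the vehicle mice in the same fit. GL3 differed from vehicle in 2 probes (0.00851%), both lower, and SEAP-M in 1 (0.00426%), also lower. Unadjusted p was under 0.05 for 642 probes (2.73%) with GL3 and 1310 (5.58%) with SEAP-M. Ass1, the argininosuccinate synthase of the urea cycle, fell in both. It was at -0.10, -0.44, -0.15 and -0.33 with GL3, at -0.30, -0.19, -0.22 and -0.28 with SEAP-M and at 0.36, 0.50, 0.38 and 0.53 with vehicle, with differences from vehicle of -0.69 for GL3 (adjusted p = 0.0373) and -0.69 for SEAP-M (adjusted p = 0.0406). The control groups overlapped each other and neither overlapped the vehicle mice. All 4 vehicle mice lay above the pool of vehicle livers. Gstt3 fell with GL3 (-0.57, adjusted p = 0.0455), and its difference with SEAP-M was -0.33 (adjusted p = 0.692). The difference between the siRNAs was -0.23 (adjusted p = 0.353). GL3 gave 0 calls without any 1 of the vehicle arrays A to D or GL3 arrays B to D, and 1 call without GL3 A. SEAP-M gave 0 without vehicle A, C or D or SEAP-M A, B or C, and 1 without vehicle B or SEAP-M D. The GL3 and SEAP-M comparisons share these vehicle arrays.

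The siRNAs against Ppara also come as a pair with and without the suffix M, in 8 other mice. This comparison was added after the data were seen, and the mouse numbers again run lower without the suffix (9 to 12 against 17 to 20). Of the 24 named probes 20 had the same sign in PPARa minus PPARa-M as in GL3 minus SEAP-M, beside 59.6% of all probes and 73.4% of the 2349 with an unadjusted p under 0.05. In that pair 2388 probes passed (10.2%), and 7 of the 24 did, all with the same sign. They were Snap29 (0.45), Spcs2 (0.26), Hspa13 (0.28), Phf1 (-0.28), Myh14 (-0.32), Aifm3 (-0.30) and Pcbp4 (-0.46). In the cholesterol list Sqle (2.07), Insig1 (1.07), Tm7sf2 (1.04) and Stard4 (0.82) passed there and lay on the same side as in GL3 minus SEAP-M. Onecut1 (-0.22), Cish (0.15), Bcl6 (0.14) and Cbr3 (-0.12) did not pass there. Ppara itself had a mean of -0.24 with PPARa siRNA and -0.71 with PPARa-M siRNA, 0.47 ± 0.17 apart (SE, adjusted p = 0.0903 over all genes). The suffix, the mouse numbers and the siRNA sequences cannot be told apart in this design. In the PPARa pair the level of Ppara cannot be told apart from them either.

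Mice of 1 group also differed among themselves. The median SD of a probe was 0.111 in the GL3 group and 0.130 in the SEAP-M group, and the SEAP-M SD was the larger in 58.9% of probes. The 8 probes of largest SD in each group included some with 1 array at the limit of the table, 6.64 on the log2 scale. In the GL3 group the 8 included Vmn2r89 in mouse B (6.64, with 5.39 in SEAP-M mouse B), Smco1 in mouse D (6.64), 1700105F02Rik in mouse D (5.16), 4930545E07Rik, where mouse C was the lowest, and the glycine receptor subunit Glrb, from -2.95 to 2.58. In the SEAP-M group they included Chst9 and 4930596I21Rik in mouse A, 1700100I10Rik in mouse B and Tfap2d in mouse C, all at 6.64, and Gprc6a in mouse D (4.21), besides Tex26 and Olr1.

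Some of the widest spreads were in genes of known liver responses. Gadd45g, a growth arrest gene, was at 1.69 in GL3 mouse B and between -2.17 and -1.90 in mice A, C and D, and Vcan, a matrix proteoglycan, at 3.59 in mouse A and at 0.20 to 0.33 in the others. Mt2, a metallothionein, was at -1.54, 0.49, -3.39 and -2.03 in the GL3 mice and at -1.67, -0.31, 0.47 and -1.42 in the SEAP-M mice. GL3 mouse B was the highest of its group in Gadd45g, in Mt2 and in the neutrophil genes.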

How the data were processed

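RNA from each liver was hybridised with a vehicle pool on 2-colour custom arrays. The values the authors deposited are log10 ratios to the pool for 23493 probes on 20 arrays; normalization is not given in the sources used here, nor is the log base, which was taken as 10 from the limit at 2. They were converted to log2 and otherwise used as deposited; the limit was reached by 40 values (36 probes). Of the probes, 18790 carry 1 symbol, 65 several and 4638 none; probes of 1 gene were averaged (15252 genes).

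Groups followed the array titles. limma 3.58.1 in R 4.3.3 was fitted with 1 mean per group over all 20 arrays, with Benjamini-Hochberg adjustment over all probes or genes and a threshold of 0.05; it was tested on simulated data. Single values were compared by exact permutation. Lists are described by counts and medians. Named were 12 probes per direction, by smallest p among those without overlap, up to 4 genes per list by smallest p, Ppara, Cpt1a, Acadl, the alkaline phosphatases and the 8 probes of largest SD per group. The members, lists and the tissue transcripts were chosen with earlier results of these data known. Alternatives were 3 normalizations, array weights, robust moderation, filters, a threshold of 0.01, other arrays in the fit, a block for the replicate letter and each array left out. Same-letter mice had deviations correlated at 0.151, 0.248, -0.104 and -0.019 (GL3 with SEAP-M, A to D), so letters were not taken as pairs. Figures were drawn with matplotlib 3.10.9.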

Additional observations from a re-analysis of the deposited data

Results flagged for a closer look

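In 322 groups of 4 mice among the named genes, lists, tissue means and array spreads, 19 (5.9%) had a mouse whose gap to the nearest other, divided by the range of the group, passed Dixon's critical value for 4 samples. Chance gives about 1 in 20. The 322 include the probes of largest SD, which were chosen by their spread in these same mice. Without those probes 12 of 292 groups passed. No difference of effects between groups was tested here beyond the comparisons of the report.

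In the GL3 group, mouse B was lowest in Cish (gap ratio 0.877), Cyp3a44 (0.942) and Ccl8 (0.960) and highest in Gadd45g (0.930). Mouse C was highest in Gbe1 (0.883) and Acsl3 (0.950), mouse D in 1700105F02Rik (0.964) and mouse A in Vcan (0.962). The Cish gap lay between -1.03 and -0.94, which is small beside the distance to the SEAP-M mice.

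In the SEAP-M group, mouse A was highest in Bcl6 (gap ratio 0.833), Abcc3 (0.956) and Chst9 (0.903) and lowest in Cxcl5 (0.934). Mouse B was highest in Tppp (0.908), Vmn2r89 (0.868) and 1700100I10Rik (0.867). Mouse C was lowest in Akp3 (0.958) and Sqle (0.840) and highest in Tfap2d (0.855), and mouse D was lowest in Ehhadh (0.844). Bcl6 was at -0.25 in SEAP-M mouse A and between -1.68 and -1.44 in the others. Acsl3 was at 0.84 in GL3 mouse C and between 0.16 and 0.20 in the others.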

How the results depend on the processing

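The count of probes called between GL3 and SEAP-M was 0 as reported. It moved to 55 with quantile normalization, 84 with one interquartile range, 231 with array weights and 65 with the GL3, SEAP-M and vehicle arrays alone. In the same order 34, 46, 264 and 55 of 15252 genes passed, and list members gave 3, 4, 13 and 1 calls. No share of the list members was computed, so these calls are no result about the lists. With 1 array left out the counts of probes and of genes called stayed at 0 to 1, and the probe call came without SEAP-M mouse A or GL3 mouse D. Both counts were 1 with the muscle covariate, added after seeing the data. The 65 calls of the smaller fit became 15, 36 and 233 with quantile normalization, one interquartile range and weights, 0 with the muscle covariate and 0 to 82 with 1 array left out: 0 without SEAP-M mouse B or D or GL3 mouse C or D, 1 without GL3 B, 7 without SEAP-M A, 17 without vehicle A, 28 without vehicle B and 32 without GL3 A.

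With the replicate letter as a block, the fit of all arrays gave 0 between GL3 and SEAP-M (smallest adjusted p 0.0782), 0 for either siRNA against vehicle, and 0 in the smaller fit. Against vehicle, GL3 gave 1 call with quantile normalization and with the 3 groups alone, and both siRNAs gave 0 with the 1.5-fold filter, a threshold of 0.01 or 2 groups alone. With 1 array left out they gave 0 to 1 each. The cause of these shifts was not tested.

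Of 1694 values of the 104 named genes and probes under the alternatives listed in the methods, 1689 had the reported sign and 108 passed the threshold. Most of these genes and probes were chosen by their p in the same arrays. The count of signs is therefore no separate test of the differences. Ppara, which is not among the 1694 values and was reported at -0.08, was 0.0644 with weights and -0.19 to 0.13 with 1 array left out. Alpl was 0.0110 with weights, Alpi 0.0186 and Alppl2 0.0107 without the mice of highest pancreatic RNA, a setting chosen after seeing the data and not among the 1694 values; the ranges with 1 array left out were -0.216 to 0.0280 for Alpi, -0.0644 to 0.0164 for Alpl and -0.0879 to 0.0177 for Cpt1a. The difference in array spread ranged from -0.0152 to -0.00418 (log10).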
